A study of Sus scrofa with 9 samples.

Results

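The genes described here encode the calcium channels, pumps, exchangers and sensors of the tooth germ. They are the 51 rows, of 34580 in the expression table, whose symbols begin with CACNA, CACNB, ATP2A, ATP2B, ATP2C, RYR, ITPR, ORAI, STIM, SLC8A, SLC24A or CALM, or are a CAMK2 gene, CASR, CALB1, MCU or TRPM7. They comprised 8 pore subunits, 4 alpha2delta subunits and 4 beta subunits of voltage-gated channels, 3 SERCA pumps, 4 plasma membrane pumps, 2 secretory pathway pumps, 3 ryanodine receptors, 3 IP3 receptors, 2 ORAI channels, 2 STIM sensors, 3 sodium-calcium exchangers, 4 potassium-dependent exchangers, the calmodulin genes, 3 CaMKII genes and the 4 single genes. RNA came from germs of Dm3, a deciduous molar of the lower jaw, of miniature pig fetuses at embryonic day 40 (E40, cap stage), day 50 (E50, early bell stage) and day 60 (E60, late bell stage). Each stage had 3 libraries. No genotype is given in the sources used here. At each stage the sows were anesthetized with ketamine and xylazine before the fetuses were removed. Whether libraries of a stage came from separate litters is not given in the sources used here, so p-values measure the spread between these libraries, which may be technical.

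Cells keep cytosolic calcium low. STIM proteins sense calcium in the endoplasmic reticulum and open ORAI channels of the plasma membrane when that store is empty, while IP3 and ryanodine receptors release the store and SERCA pumps refill it. Plasma membrane pumps (ATP2B genes), sodium-calcium exchangers (SLC8A genes) and potassium-dependent exchangers (SLC24A genes) carry calcium out of the cell. SLC24A5 differs, as an exchanger of intracellular membranes. In a tooth germ the ameloblasts and odontoblasts pass calcium on to enamel and dentin.

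Values are FPKM, fragments per kilobase of exon scaled to the mapped fragments of a library, and whole reads were recovered from their steps. The libraries fell into 2 depth sets. The E40 libraries and E60 libraries 2 and 3 held 938527 to 1760356 recovered reads and are called shallow, and the E50 libraries and E60 library 1 held 14362235 to 16674750 and are called deep. For a transcript of 1 kb, 1 read was worth 0.568 to 1.07 FPKM in the shallow libraries and 0.0600 to 0.0696 FPKM in the deep ones. All E40 libraries were shallow and all E50 libraries deep, so stage and depth set cannot be told apart between these stages. Over the 41 calcium genes tested, log2(FPKM + 0.1) of E60 library 1 had a Pearson r of 0.87 to 0.90 with the E50 libraries and of 0.53 and 0.62 with the other E60 libraries, a description across genes, which are not replicates. All 3 E60 libraries carried their stage's defining markers. The ameloblast markers summed to 14.4 to 23.9 FPKM at E40 and E50 and to 3387 to 18300 FPKM at E60, carried by the enamel matrix genes AMEL, AMBN and ENAM, which like the odontoblast markers DSPP, DMP1 and PHEX were higher in every E60 library than in any other. The other markers of both lists did not follow. AMTN was lower at E60, at 0.819 to 4.83 FPKM, than at E50, at 10.5 to 15.6 FPKM, and ODAM, COL1A1, IBSP and SPP1 overlapped between E60 and the earlier stages. The epithelial cadherin gene CDH1 was listed at 0 in all libraries. E60 was therefore also compared within each depth set, E60 libraries 2 and 3 with E40, and E60 library 1 with E50. These 2 comparisons share no library. In the second, E60 has 1 library, which is assumed to vary as the E50 libraries do. In bulk tissue, fewer cells of a type and less RNA per cell cannot be told apart.

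Of the 51 genes, 41 reached 1 FPKM in 2 or more libraries and were tested. 33 had more than 3 reads, the floor used here, in all 9 libraries. ATP2B2, RYR3 and CACNB4 were listed at 0 throughout. ATP2B3, ATP2A3, CAMK2B, SLC24A3, SLC24A4, CACNA2D4 and CACNA1A had reads but did not pass the filter. By mean FPKM, the calmodulin gene CALM3, the secretory pathway pump ATP2C1 and the SERCA pump ATP2A2 were among the 8 highest at every stage. At E50, CALM3 stood at 106 ± 17.0 FPKM (SD, n = 3), ATP2C1 at 93.3 ± 10.4 and ATP2A2 at 50.4 ± 5.29. The E50 ranges of CALM3, at 87.2 to 121 FPKM, and ATP2C1 overlapped. At E60 TRPM7 and ATP2B1 ranked 4 and 5, with SLC24A5 highest, by means over libraries that differed widely. SLC24A5 stood at 213 ± 192 FPKM (SD, n = 3), TRPM7 at 58.2 ± 66.4 and ATP2B1 at 48.4 ± 33.4.

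Of the 41 genes, 6 had their E60 libraries above all libraries of like depth in both sets, beside 3.29% of all genes, and 3 had them below, beside 12.4%. The 6 were the receptor gene CASR, the exchanger SLC8A3, the pump ATP2B1 and the channel genes TRPM7, CACNA2D3 and CACNA1D, and the 3 were ATP2A1, RYR1 and SLC8A1. CACNA2D3 rests on no more than 3 reads in any shallow library, so its order there is not resolved. CACNA1D counts by narrow margins, 1.545 FPKM in E60 library 2 against 1.522 at E40, and 7.126 in E60 library 1 against 6.918 at E50. The 3 genes below also count by narrow margins. ATP2A1 had 7 reads in E60 library 1 against 16, 8 and 10 at E50, and RYR1 had 32 against 61, 54 and 32. SLC8A1 had 2.71 FPKM in E60 library 3 against 2.81 FPKM in E40 library 2. CASR encodes the receptor that senses calcium outside the cell. It had 0.322, 1.15 and 0.686 FPKM at E40, 0.723, 0.599 and 0.400 FPKM at E50, and 10.6, 5.26 and 6.02 FPKM at E60. Every E60 library lay above every other library, in both depth sets. The E40 values rest on 1, 4 and 3 reads and those of the shallow E60 libraries on 24 and 35. Per recovered read, CASR was 7.78 times as frequent in the shallow E60 libraries as at E40 (exact 95% interval 3.7 to 18.9, counting error only) and 18.5 times as frequent in E60 library 1 as at E50 (14.7 to 23.4). From E40 to E60 over all 9 libraries CASR rose by a log2 fold change of 3.24 ± 0.61 (SE, limma adjusted p = 0.0333), the one calcium gene of 41 past the limits (adjusted p below 0.05, log2 fold change of 1 or more in size), beside 1.8% of all genes (0.663% higher and 1.14% lower). Leaving out any single E40 or E50 library, or E60 library 3, left none of the 41 past the limits, and leaving out E60 library 1 or 2 left 4, beside 6.06 and 6.11% of all genes. Outside E60, CASR reached 1 FPKM in 1 library only, so it entered the test through the stage where it is high, and without the filter on low values it was not called (limma adjusted p = 0.0589). With a term for the depth set in the fit, CASR, ATP2B1 and SLC8A3 were higher past the limits and CACNB2 lower, 4 of 41 beside 5.89% of all genes. That term rests on E60 alone, the only stage with libraries of both depth sets. Within the shallow libraries the log2 difference of CASR was 2.94 ± 0.68 (limma adjusted p = 0.096), and from E50 to E60 over all libraries it was 3.42 ± 0.61 (limma adjusted p = 0.13).

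SLC8A3, one of the exchangers that trade sodium for calcium at the plasma membrane, was the other gene with all E60 libraries above all the rest. Its values were 2.98, 1.45 and 3.08 FPKM at E40, 6.48, 6.43 and 6.86 FPKM at E50, and 16.1, 7.01 and 9.11 FPKM at E60. The shallow E60 library 2 lay only just above the highest E50 library, while E60 library 1, of the same depth as the E50 libraries, held more than any other library. From E50 to E60 within the deep libraries SLC8A3 rose by 1.27 ± 0.24 on the log2 scale (limma adjusted p = 9.74e-05). Within the shallow libraries it was higher by 1.71 ± 0.49 (limma adjusted p = 0.146), which did not pass. Of the 41 calcium genes, 2 had every E60 library above every other library, beside 0.805% of all genes, and 0 had every E60 library below, beside 2.91%.

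ATP2B1 encodes the plasma membrane calcium pump found in most cells. It stood at 8.11, 11.4 and 15.0 FPKM at E40, at 33.1, 37.6 and 25.4 FPKM at E50, and at 86.6, 24.4 and 34.3 FPKM at E60. Each E60 library was above all others of its own depth set, but the shallow E60 libraries overlapped with E50. In the deep set ATP2B1 rose by 1.45 ± 0.27 (limma adjusted p = 4.63e-05), and within the shallow ones it was higher by 1.37 ± 0.38 (limma adjusted p = 0.137). CASR, SLC8A3 and ATP2B1 were the 3 of 41 genes at least 1 higher at E60 on the log2 scale within both depth sets with no overlap, beside 1.23% of all genes. No calcium gene was lower in that way, beside 1.4% of all genes.

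TRPM7, a cation channel joined to a kinase domain that passes calcium and magnesium, lay just outside that rule. It had 8.32, 10.0 and 11.1 FPKM at E40, 33.9, 48.4 and 42.9 FPKM at E50, and 135, 16.0 and 24.0 FPKM at E60. The E60 libraries were above the others of their depth set, by 1.0 ± 0.34 in the shallow set (limma adjusted p = 0.201) and by 1.70 ± 0.27 in the deep set (limma adjusted p = 2.17e-06). Only the deep difference passed. Over all 9 libraries the E50 to E60 difference of TRPM7 was -0.15 ± 0.69 (limma adjusted p = 0.874), and without E60 library 1 it fell by 1.07 (limma adjusted p = 0.00994) in a fit that called 59.1% of all genes, so the pooled value turns on which E60 libraries enter.

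**Figure D1:**
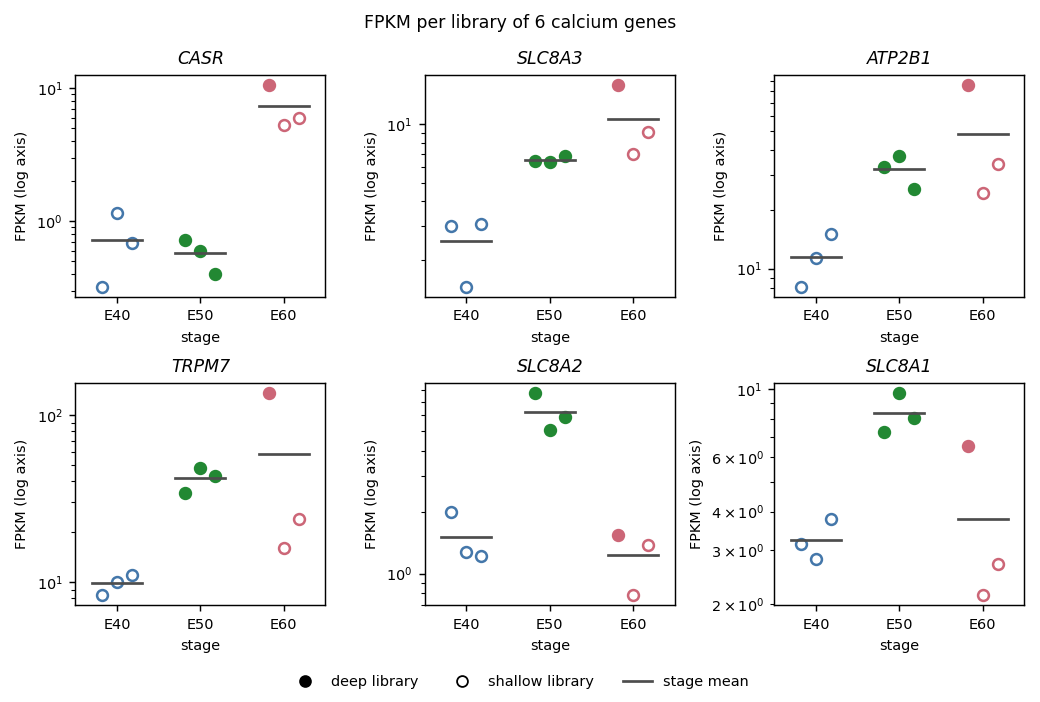
FPKM in each library (log axis) of CASR, SLC8A3, ATP2B1, TRPM7, SLC8A2 and SLC8A1 by stage, with filled points for deep and open points for shallow libraries and a line at the stage mean. CASR stood at 5.26 to 10.6 FPKM in the E60 libraries and at no more than 1.15 FPKM in the others, and SLC8A2 was at 5.05 to 7.68 FPKM at E50 and no higher than 2.01 FPKM elsewhere.

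SLC8A2, a second sodium-calcium exchanger, best known from neurons, went the other way. It had 2.01, 1.28 and 1.22 FPKM at E40, 7.68, 5.05 and 5.88 FPKM at E50, and 1.54, 0.782 and 1.38 FPKM at E60. E60 library 1 held 92 reads, against 312 to 417 in the E50 libraries of like depth. In the deep set SLC8A2 fell by 1.92 ± 0.27 on the log2 scale (limma adjusted p = 1.48e-07), and within the shallow ones the groups overlapped (-0.46 ± 0.68, limma adjusted p = 0.728). Over all libraries the E50 to E60 difference was -2.27 ± 0.49 (limma adjusted p = 0.164). Of 11 neuron markers 7 were listed, and they summed to between 8.24 and 16.6 FPKM at E40, 8.98 and 9.52 FPKM at E50, and 2.45 and 7.33 FPKM at E60, with the highest E60 sum in library 1. Their part in the result was not tested.

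A ratio of genes within a library does not depend on the scaling of that library. The share of each exchanger in the summed FPKM of SLC8A1, SLC8A2 and SLC8A3 was therefore computed per library, a measure chosen after the values were seen and given without a test. SLC8A3 made up 36.6, 26.2 and 38.1% of this sum at E40, 30.2, 30.4 and 32.9% at E50, and 66.6, 70.6 and 69.0% at E60. The 3 E60 libraries came from both depth sets and lay between 66.6 and 70.6%, and none of the other 6 libraries exceeded 38.1%. In the shallow libraries the shares rest on few reads, down to 4 of SLC8A2 and 6 of SLC8A3 in a library. Shares can also differ by depth set, as those of the IP3 receptors given below did at E60. SLC8A2 held 6.38 to 10.5% at E60 and 15.2 to 35.8% before. SLC8A1, the exchanger of heart and many other tissues, held 20.5 to 27.0% at E60 and 34.0 to 50.6% before. Among the plasma membrane pumps, ATP2B1 held 74.3, 81.2 and 78.7% of the sum with ATP2B4 at E60, 64.2, 66.5 and 71.7% at E40, and 45.7 to 52.4% at E50. The share of ATP2B1 at E60 was above that of every E40 and E50 library, narrowly so for 74.3% against 71.7%. ATP2B4 was itself split by depth set, at 4.51 to 9.25 FPKM in the shallow and 30.0 to 34.2 FPKM in the deep libraries.

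**Figure D2:**
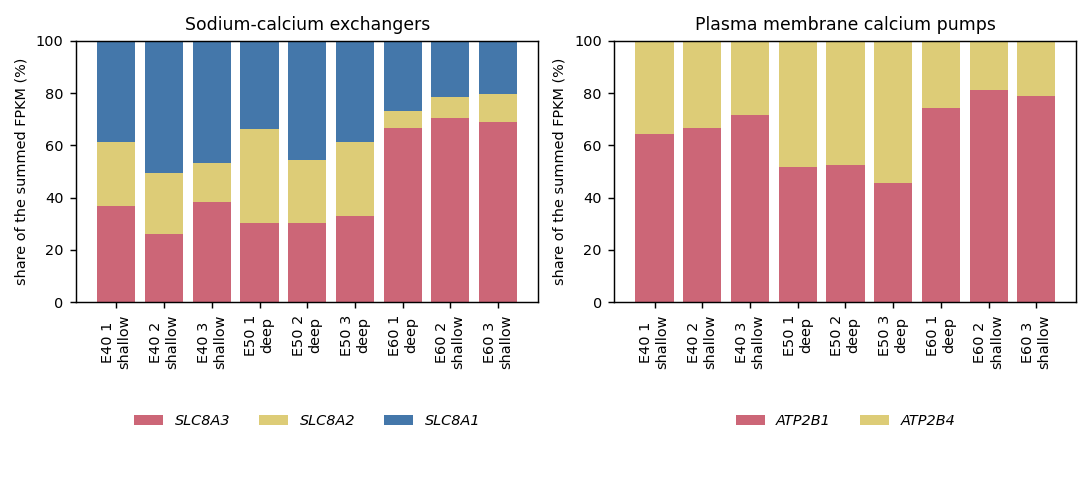
Stacked bars of the share (%) that each gene took of the summed FPKM of SLC8A1, SLC8A2 and SLC8A3 (left) and of ATP2B1 and ATP2B4 (right), 1 bar per library, with the depth set named under it. SLC8A3 held 66.6 to 70.6% in the E60 libraries and 26.2 to 38.1% in the other 6.

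Within the deep libraries, 4 of 35 calcium genes passed the limits (11.4%), beside 5.74% of all genes. TRPM7, ATP2B1 and SLC8A3 rose, 3 of 35 beside 2.86% of all genes higher, and SLC8A2 fell, beside 2.88% lower. The median log2 difference of the 35 was 0.09, and that of all genes -0.06. These 4 calls were kept when any E50 library was left out. Without the filter on low values they were lost, and that fit called no gene at all. CACNB3, a beta subunit of voltage-gated channels, had 13.8, 10.1 and 12.8 FPKM at E50 and 7.17 FPKM in E60 library 1, below all 3. CACNA1G, a T-type pore subunit, had 6.18, 5.14 and 5.70 FPKM against 3.44 FPKM. The store-operated genes lay closer to E50. STIM1 was at 5.90 FPKM in E60 library 1 and 4.89 to 6.69 FPKM at E50, ORAI1 at 12.3 against 9.96 to 14.3 FPKM, and ORAI3 at 9.88 against 8.52 to 11.1 FPKM. These 3 E60 values lay inside the E50 ranges. STIM2 was at 17.2 FPKM, above its E50 range of 12.5 to 15.9 FPKM. MCU, the pore of the mitochondrial calcium uniporter, was at 22.6 against 20.3 to 24.6 FPKM.

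Within the shallow libraries, 0 of 40 calcium genes passed the limits with limma, beside 1.3% of all genes (0.212% higher and 1.09% lower). 8 of the 40 had an unadjusted p under 0.05, beside 3401 of the 18426 genes tested, and the smallest adjusted p was 0.0793. Limma-voom on the recovered reads called 6, with CASR, SLC8A3 and ATP2B1 higher and RYR1, ATP2A1 and CACNB2 lower at E60, beside 4.66% of all genes. The median log2 difference was -0.39 for the 40 and -0.48 for all genes. CACNB2, a beta subunit, had 17.8, 14.1 and 17.1 FPKM at E40 and 5.64 and 5.47 FPKM in the shallow E60 libraries, with no overlap (-1.53 ± 0.32, limma adjusted p = 0.0793). In the deep set its order was the opposite, with 2.43, 2.75 and 2.37 FPKM at E50 and 3.7 FPKM at E60.

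**Figure D3:**
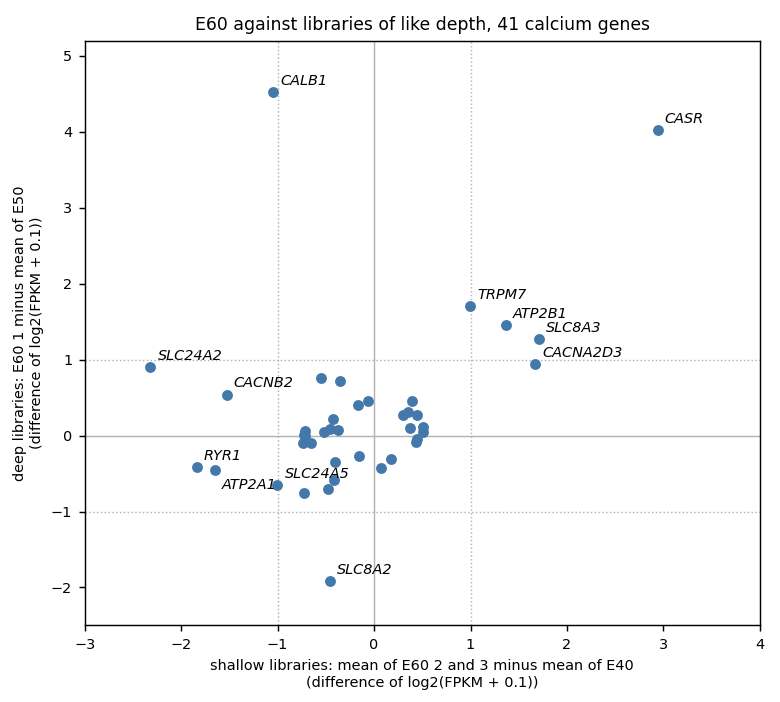
Difference of log2(FPKM + 0.1) between E60 and libraries of like depth for the 41 calcium genes tested, E60 libraries 2 and 3 minus E40 (x axis, shallow) and E60 library 1 minus E50 (y axis, deep), with dotted lines at 1 and -1. CASR lay at 2.94 and 4.02, ATP2B1 at 1.37 and 1.45, SLC8A3 at 1.71 and 1.27, and CALB1 at -1.04 and 4.52.

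CALB1 encodes the cytosolic calcium buffer calbindin, which ameloblasts are known to contain. It had 39.2, 28.4 and 29.5 FPKM at E40, 0.157, 0.0689 and 0.160 FPKM at E50, and 5.06, 17.5 and 13.7 FPKM at E60. The stages did not overlap, but all shallow libraries, at 13.7 FPKM or more, also lay above all deep ones, at 5.06 FPKM or less. The E50 values rest on 2, 1 and 2 reads, under the floor in spite of the depth of these libraries, while the E40 values rest on 26 to 34 reads and E60 library 1 on 71. Per recovered read CALB1 was 254 times as frequent at E40 as at E50 (exact 95% interval 105 to 800), which sets shallow against deep libraries. Within the deep set it was 40.2 times as frequent in E60 library 1 as at E50 (16.5 to 128). CALB1 fell from E40 to E50 (limma adjusted p = 0.000459) and rose from E50 to E60 (limma adjusted p = 0.00605), with fitted log2 fold changes of -7.16 ± 0.53 and 5.59 ± 0.53 that depend on the pseudocount. The second call was lost without E50 library 1, without E50 library 2 and without E60 library 3. It was the 1 calcium gene of 41 past the limits from E50 to E60, beside 0.0714% of all genes (0.051% higher and 0.0204% lower). Leaving out E60 library 1 moved that count to 24 of 41, beside the 59.1% of all genes given above. Over all 9 libraries, 11 of the 41 had an unadjusted limma p under 0.05, beside 5923 of the 19618 genes tested. Within the shallow libraries CALB1 was lower at E60 than at E40, by 1.04 on the log2 scale (SE 0.31, limma adjusted p = 0.153). In the deep set it was not tested because E60 library 1 alone exceeded 1 FPKM.

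From E40 to E50, 17 of 41 calcium genes passed the limits (41.5%), beside 38.6% of all genes. 11 of them rose, beside 16.8% of all genes, and 6 fell, beside 21.8%. The median log2 fold change was 1.15 for the 41 and 0.55 for all genes tested. Median-ratio scaling moved the median of all genes to -0.09 and split the calcium genes past the limits into 6 higher and 8 lower, beside 12.2 and 24.9% of all genes. This comparison sets shallow against deep libraries. Of the 41 genes, 19 had all deep libraries above all shallow ones, E60 included, beside 37.7% of all genes. All shallow libraries lay above all deep ones for 5, SLC24A5, CALB1, ATP2A1, CACNA1F and CACNB2, beside 20.1%. With a term for the depth set in the fit, CALB1 alone passed, beside 0.255% of all genes. Only E60 has libraries of both depth sets, so this term rests on E60 library 1 against E60 libraries 2 and 3. It cannot separate stage from depth between E40 and E50. Leaving out each library in turn gave 1 to 27 genes, with 2 genes without E40 library 1, 6 without E40 library 2, 10 without E40 library 3, 5 without E50 library 1, 1 without E50 library 2 or 3, 27 without E60 library 1 or 2, and 11 without E60 library 3. The share of all genes past the limits moved over these fits from 0.297 to 54.6%.

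Among those that rose were genes that clear calcium from the cytosol. ATP2B4, a plasma membrane pump, went from 4.51, 5.73 and 5.91 FPKM at E40 to 31.1, 34.2 and 30.1 FPKM at E50 (2.55 ± 0.55, limma adjusted p = 0.0131). It was at 30.0 FPKM in E60 library 1 and at 5.66 and 9.25 FPKM in the shallow E60 libraries, so that its values followed the depth sets at E60. ATP2B1 rose by 1.5 ± 0.49 (limma adjusted p = 0.0393), SLC8A2 by 1.98 ± 0.49 (limma adjusted p = 0.0173) and SLC8A3 by 1.43 ± 0.46 (limma adjusted p = 0.0382). SLC8A1 was higher by 1.34 ± 0.48 (limma adjusted p = 0.0532), which did not pass. At E60 the deep library held 1.54 FPKM of SLC8A2, inside the E40 range, and more SLC8A3, at 16.1 FPKM, than the shallow libraries, at 7.01 and 9.11 FPKM. With a term for the depth set, which rests on E60 alone, neither SLC8A2 nor SLC8A3 passed. The differences were 1.46 and 0.43 (limma adjusted p = 0.689 and 0.931).

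The sensors and release channels differed among themselves. STIM2 went from 2.27, 2.70 and 4.29 FPKM to 12.5, 15.9 and 14.5 FPKM (2.22 ± 0.61, limma adjusted p = 0.0237) and was at 3.08 and 4.43 FPKM in the shallow E60 libraries. STIM1 was higher by 1.05 ± 0.53 (limma adjusted p = 0.136). ITPR2, an IP3 receptor, rose by 2.0 ± 0.70 (limma adjusted p = 0.0483), ITPR1 was higher by 0.90 ± 0.48 (limma adjusted p = 0.153) and ITPR3 stood at -0.08 ± 0.35 (limma adjusted p = 0.85). The 3 IP3 receptors thus differed within each library. ITPR3 held 50.8 to 65.5% of their summed FPKM at E40 and 28.4 to 36.2% at E50, where ITPR2 held 39.4 to 48.0%. At E60 ITPR3 held 28.3% in the deep library and 46.7 and 55.0% in the shallow ones, and ITPR2 41.6% against 18.3 and 20.7%, so that both shares were split by depth set. ORAI1 was higher by 0.84 ± 0.62 (limma adjusted p = 0.282) and ORAI3 by 1.02 ± 0.40 (limma adjusted p = 0.0674). The share of ORAI1 in the sum of both was 49.9 to 64.2% at E40 and 50.8 to 56.5% at E50. At E40 ORAI1 rested on 4 to 6 reads a library.

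TRPM7 rose by 2.07 ± 0.69 (limma adjusted p = 0.0406) and CACNA1D, an L-type pore subunit, by 2.23 ± 0.58 (limma adjusted p = 0.02). CACNA1C, the other widely expressed L-type subunit, was higher by 1.66 ± 0.68 (limma adjusted p = 0.0764). CALM3 was higher by 0.45 ± 0.41 (limma adjusted p = 0.383), and its sign turned under median-ratio scaling. How reads shared by genes of near-identical sequence were counted is not given in the sources used here. MCU was higher by 1.33 ± 0.58 (limma adjusted p = 0.0912) and ATP2A2 by 1.36 ± 0.54 (limma adjusted p = 0.0709). CAMK2D, a subunit of calmodulin kinase II, and RYR2, the ryanodine receptor of the heart, were also among the 11. CAMK2D went from 9.52 to 17.8 FPKM at E40 to 40.8 to 47.6 FPKM at E50, while CAMK2G, of the same kinase, had 24.1 to 24.8 FPKM and then 15.0 to 17.0 FPKM.

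**Figure D4:**
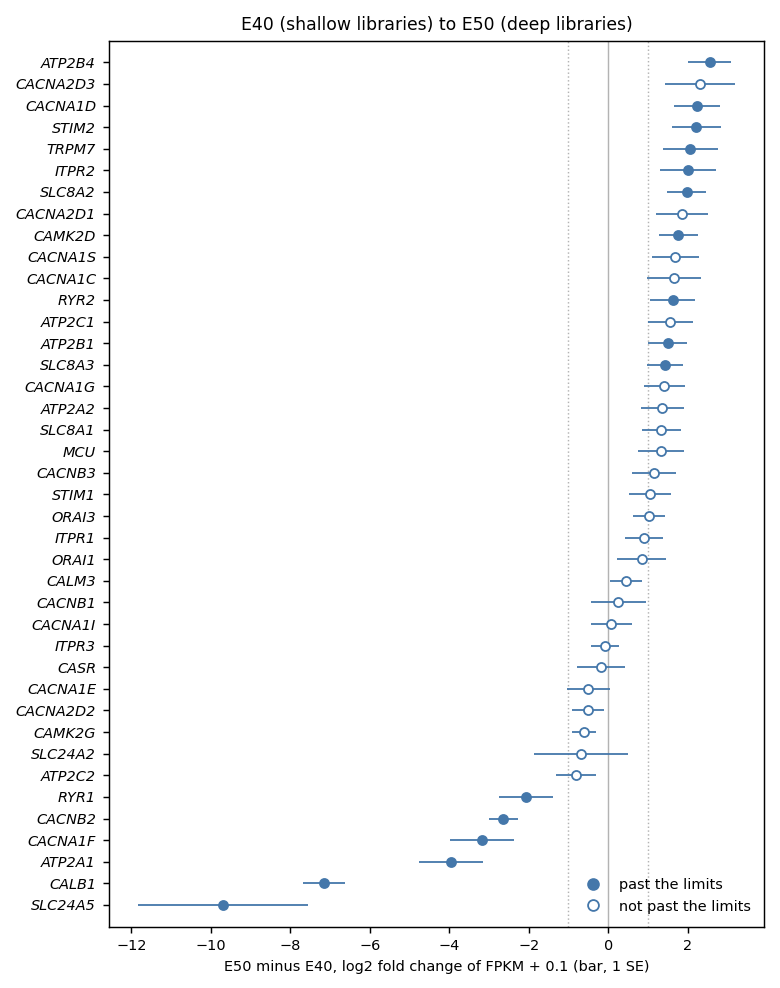
Log2 fold change of FPKM + 0.1 from E40 to E50 for 40 of the 41 calcium genes tested, with bars of 1 SE, filled points for those past the limits and dotted lines at 1 and -1. 10 filled points lie to the right of 0 and 6 to the left, with SLC24A5 at -9.69 and CALB1 at -7.16.

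The genes that fell from E40 to E50 were SLC24A5, CALB1, ATP2A1, CACNA1F, CACNB2 and RYR1. SLC24A5, an exchanger of intracellular membranes known from pigment cells, was the most abundant calcium gene at E40, with 761, 653 and 504 FPKM, and had 2.16, 0.298 and 0.389 FPKM at E50 and 0.385, 372 and 265 FPKM at E60. Its shallow E60 libraries held 828 and 752 reads and the deep one 10. The fold change of -9.69 ± 2.13 (limma adjusted p = 0.0133) thus sets shallow against deep libraries, and within the shallow libraries it was lower at E60 by 1.0 on the log2 scale (SE 0.31, limma adjusted p = 0.169). The 8 melanocyte markers, all listed and chosen after these values were seen, summed to between 10.7 and 19.6 FPKM in every library, with TYRP1 between 0 and 1.53 FPKM. From E40 to E50, 1 of the 6 tested rose and 2 fell. TYR, the first enzyme of melanin synthesis, had 3.4 to 8.4 FPKM at E40, 0 to 0.231 FPKM at E50, and 0.105, 2.45 and 1.6 FPKM at E60, while DCT, a later enzyme of the same path, had 0.493 to 1.75 FPKM at E40, 6.72 to 7.57 FPKM at E50, and 4.93, 0.335 and 3.15 FPKM at E60. The part of pigment cells in these values was not tested. Other calcium genes were split between the depth sets in either direction. PLN, JPH3 and CASQ2 had all shallow libraries above all deep ones, and CALU, CANX and HOMER1 had all deep ones above. The part of the depth set in these values was not tested. PLN, an inhibitor of SERCA pumps, had 71.0 to 118 FPKM at E40, 0.186 to 0.245 FPKM at E50, and 0.253, 77.9 and 42.55 FPKM at E60. JPH3, a junctophilin of neurons, had 26.8 to 36.5 FPKM at E40, 0.427 to 1.24 FPKM at E50, and 0.528, 17.6 and 18.2 FPKM at E60. CASQ2, a calcium buffer of the heart's calcium store, had 23.7 to 28.7 FPKM at E40, 0.343 to 0.547 FPKM at E50, and 2.67, 21.9 and 14.0 FPKM at E60. CACNA1F, an L-type pore subunit of the retina, had 1.70 to 2.42 FPKM at E40, 0.113 to 0.175 FPKM at E50 and 0.131, 1.17 and 1.47 FPKM at E60, again split by depth (-3.17 ± 0.81, limma adjusted p = 0.0188). CACNB2 fell by 2.64 ± 0.36 (limma adjusted p = 0.00876). Its shallow libraries, at 5.47 FPKM or more, all lay above its deep ones, at 3.70 FPKM or less.

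RYR1 and ATP2A1 encode the release channel and the pump of skeletal muscle. RYR1 had 1.04, 1.17 and 1.38 FPKM at E40, 0.271, 0.210 and 0.145 FPKM at E50, and 0.129, 0.424 and 0.148 FPKM at E60. All E40 libraries lay above all others, in both depth sets. From E40 to E50 RYR1 fell by 2.08 ± 0.68 (limma adjusted p = 0.0394). It reached 1 FPKM in the E40 libraries only and so entered the test through the stage where it is high, and the call was lost without the filter (limma adjusted p = 0.0524) and with a replicate block (limma adjusted p = 0.0791). ATP2A1 had 4.88, 4.90 and 4.32 FPKM at E40, 0.312, 0.137 and 0.199 FPKM at E50, and 0.124, 1.24 and 1.62 FPKM at E60, and fell by 3.96 ± 0.81 (limma adjusted p = 0.0127). Its E40 libraries were likewise the highest, but the shallow E60 libraries lay above the deep one. The skeletal muscle markers also had their highest sums at E40. 17 of 21 were listed, their FPKM summed to 323 to 465 at E40, 38.5 to 49.5 at E50, and 130, 30.95 and 54.1 at E60, and 12 of the 14 tested fell from E40 to E50 and 8 of 14 from E40 to E60 within the shallow libraries. In E60 library 1, where RYR1 and ATP2A1 were at their lowest, MYL1 alone gave 109 FPKM of the sum. CKM, NEB and TNNT3 were listed at 0 in every library. The part of these cells in the values of RYR1 and ATP2A1 was not tested. CACNA1S, the voltage sensor of skeletal muscle, did not go with them, with 0.511 to 1.33 FPKM at E40 and 2.64 to 3.77 FPKM at E50. At E60 it had 2.41, 0.811 and 1.18 FPKM, so all its deep libraries lay above all its shallow ones.

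**Figure D5:**
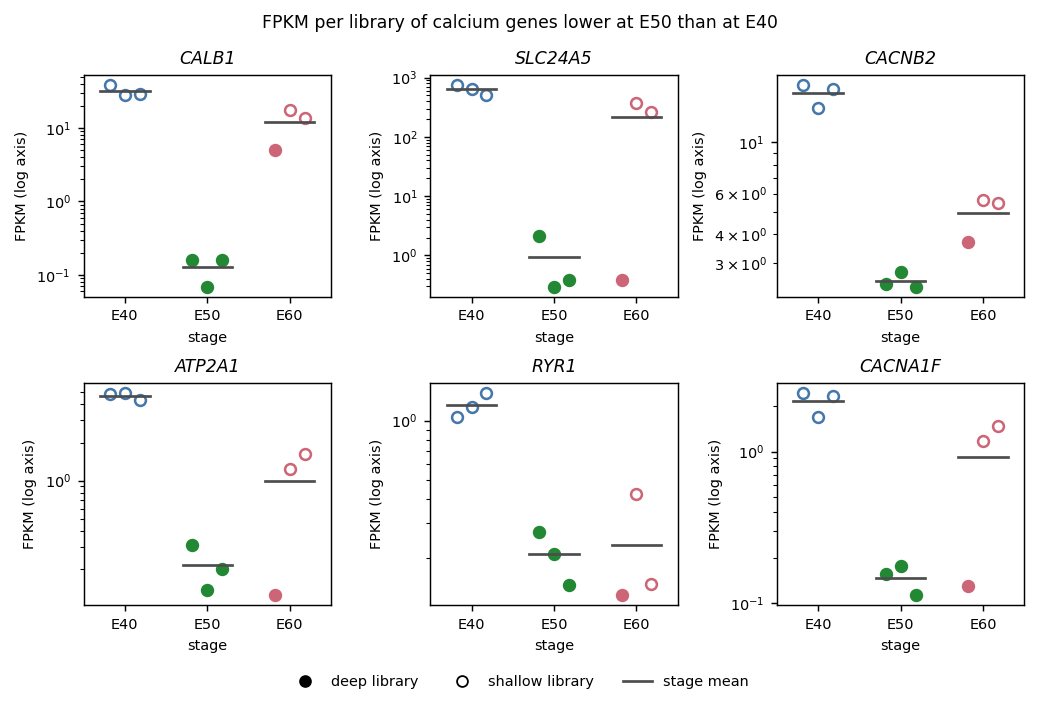
FPKM in each library (log axis) of the 6 calcium genes that fell from E40 to E50, with filled points for deep and open points for shallow libraries and a line at the stage mean. SLC24A5 and CACNA1F in E60 library 1 lie with the deep E50 libraries, at 0.385 and 0.131 FPKM, and the shallow E60 libraries at 265 to 372 and 1.17 to 1.47 FPKM, whereas CALB1 in E60 library 1, at 5.06 FPKM, lies apart from E50.

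The potassium-dependent exchangers tied to enamel were near the limit of detection. SLC24A4, the exchanger that ameloblasts use at enamel maturation, had 0 reads in the 3 E40 libraries, which allows up to 0.813 FPKM in the shallowest of them at a floor of 3 reads. It had 16, 11 and 9 reads (0.278, 0.168 and 0.159 FPKM) at E50, and 40, 3 and 0 reads (0.631, 0.553 and 0 FPKM) at E60. Within the deep libraries it was 3.15 times as frequent per recovered read at E60 as at E50 (exact 95% interval 1.96 to 5.08, counting error only), and no E40 to E60 difference was detectable at the depth of the shallow libraries. SLC24A3 had at most 5 reads in any library. SLC24A2, known from retina and brain, had 1.39 to 1.51 FPKM at E50 and 2.78 FPKM in E60 library 1. The E40 libraries held 1.74, 1.55 and 4.93 FPKM, on 2, 2 and 8 reads. The shallow E60 libraries held 2.36 and 0 FPKM, on 4 and 0 reads.

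The voltage-gated pore subunits were low. Apart from CACNA1D, with 6.32 to 7.13 FPKM in the deep libraries, and CACNA1G, with 3.44 to 6.18 FPKM there, the highest in any library was CACNA1S at 3.775 FPKM. Of the summed FPKM of the 6 subunits with a mean of at least 1 FPKM, CACNA1D held 12.4 to 19.8% at E40 and 30.4 to 37.1% at E50. At E60 its share was split by depth set, at 42.0% in the deep library and 25.8 and 24.1% in the shallow ones. Of the alpha2delta subunits, which carry the pore to the membrane, CACNA2D1 was the main one in the deep libraries, at 16.5 to 25.3 FPKM and 80.2 to 83.9% of the sum of 3. CACNA2D3 held 8.06 to 16.8% of that sum at E60 and 0 to 7.50% before, with 81 reads in E60 library 1 against 29 to 48 at E50 and with no more than 3 reads in any shallow library.

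Calcium genes outside these families were counted from lists chosen with earlier results of these data known. From E40 to E50, 1 of 7 genes of mitochondrial calcium uptake rose and none fell, 3 of 11 TRP channels rose and 2 fell, 4 of 12 calcium-binding proteins of the endoplasmic reticulum rose and 2 fell, 2 of 11 calcineurin and NFAT genes rose, 1 of 8 other calmodulin kinases rose and 1 fell, and 1 of 14 channel and pump modulators rose and 2 fell, against the 16.8 and 21.8% of all genes given above. Of the cytosolic calcium buffers, 1 was tested and did not pass. CALU, a calcium-binding protein of the endoplasmic reticulum, and CANX, a chaperone there, rose by 2.09 ± 0.61 and 1.93 ± 0.55 (limma adjusted p = 0.0277 and 0.0265). RCAN1, an inhibitor of calcineurin, rose by 2.39 ± 0.52 (limma adjusted p = 0.0131). TRPC1, a cation channel, rose by 3.48 ± 0.89 (limma adjusted p = 0.0188), and TRPV6, an epithelial calcium channel, fell by 4.01 ± 1.11 (limma adjusted p = 0.0235). The depth set cannot be told apart from the stage here either. TRPV6 had 4.17 and 2.62 FPKM in the shallow E60 libraries and 0.0714 FPKM in the deep one. From E50 to E60, from E40 to E60 and within the shallow libraries, none of these lists had a gene past the limits. Within the deep libraries 1 of 11 calcineurin and NFAT genes did, NFATC4, a transcription factor that calcineurin activates, which fell by 1.14 ± 0.25 (limma adjusted p = 0.000759).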

How the data were processed

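The authors depleted rRNA, prepared directional libraries, sequenced paired ends, mapped them with TopHat (build Sscrofa10.2 in the submitters' processing notes) and deposited a table of FPKM by gene and library. How genes were counted, and any scaling between libraries, is not given in the sources used here. Stages were taken from the labels.

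FPKM values of a gene rose in steps of 1 read. Whole reads, within 0.02 of a whole number, were recovered for 28963 of 28963 genes above 0 of 34580 listed. Tested on simulated data, the recovery returned all reads exactly for 93.7% of 5795 genes. Libraries were called deep or shallow by their recovered reads, with none between 1760356 and 14362235. Counts of 3 reads were the floor. Intervals are exact binomial ones at 95%, for counting error alone.

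The 19618 genes that reached 1 FPKM in 2 or more of the 9 libraries entered limma (version 3.58.1, R version 4.3.3) as log2(FPKM + 0.1). The fit had 1 coefficient per stage and a trended prior variance, and p was adjusted by Benjamini-Hochberg over all genes tested. Fold changes on this scale understate the change of low genes. A gene passed with adjusted p below 0.05 and a log2 fold change of 1 or more in size. The same test was run within the shallow (18426 genes) and the deep libraries (14499 genes). The fit was also run on simulated data without a difference between the depth sets, so that run cannot show how it performs across them. Tests are given for up to 12 calcium genes with the largest change past the limits per comparison and for those tied to enamel and dentin, and genes of other lists are named only past the limits, up to 4 a list. Shares within families were computed after the values were seen. Alternatives were other pseudocounts and filters, median-ratio scaling, a replicate block, no fold limit, only the stages compared, a term for the depth set, limma-voom on recovered reads, and leaving out each library. The genes and lists were chosen with earlier results of these data known. Positions and sequences were not used here. The counts include 1 gene that is not reported here. The other software was matplotlib 3.10.9, scipy 1.17.1, pandas 2.3.3, numpy 2.4.6 and Python 3.11.15.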

Additional observations from a re-analysis of the deposited data

How the results depend on the processing

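From E40 to E50, the 17 calcium genes past the limits became 10 without the filter on low values, 10 with a replicate block, 28 with only the stages compared and 1 with a term for the depth set, and 1 to 27 when a library was left out. From E50 to E60, the 1 gene became 2 with a pseudocount of 1, with median-ratio scaling and with limma-voom, 0 with a replicate block and with only the stages compared, and 0 to 24 when a library was left out. From E40 to E60, the 1 gene became 0 with a pseudocount of 0.01, without the filter, with a replicate block and with only the stages compared, 3 with limma-voom, 4 with a pseudocount of 1 and with a term for the depth set, 5 with median-ratio scaling, and 0 to 4 when a library was left out. Within the shallow libraries, the 0 genes became 1 with a pseudocount of 1, 6 with limma-voom, and 0 to 1 when a library was left out, and stayed 0 with a replicate block. Within the deep libraries, the 4 genes became 0 without the filter and 4 to 5 when an E50 library was left out. The share of all genes past the limits also moved over these alternatives, from 0.255 to 58.5%, 0.0204 to 59.1%, 0.142 to 6.11%, 0.0163 to 9.34% and 0 to 7.05% in the order of the comparisons above, and the cause was not tested.

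With a term for the depth set, the E40 to E50 value changed sign for TRPM7 (-0.71), ITPR2 (-0.45), ATP2B1 (-0.08), ORAI1 (-0.78), SLC8A1 (-0.06), ATP2A2 (-0.65), ITPR1 (-0.52) and MCU (-0.72). The term is set by the E60 libraries alone, so these values cannot separate stage from depth. The E40 to E50 value of CALM3 became -0.21 with median-ratio scaling, and that of CASR lay between -0.59 and 0.20 when a library was left out. The E50 to E60 value of TRPM7 became 0.63 with median-ratio scaling and 1.70 with the depth term, and lay between -1.07 and 0.46 when a library was left out, and that of ATP2B1 lay between -0.13 and 0.78. The deep fit without E60 replicate 1 or with the replicate block could not be made. Deviations from the stage mean had r between -0.52 and 0.11 for samples with the same number. Each mean rests on 3 libraries and E60 mixes both depth sets, so whether the numbers mark a pairing cannot be told.

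The E40 values of CASR, SLC24A4 and ORAI1 rest on few or no reads. In the shallow libraries, 3 reads were worth between 0.107 FPKM (RYR2) and 4.35 FPKM (ORAI1), by gene. E60 has 1 deep library and no p within that set measures the spread between E60 libraries.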
